A study of Mus musculus with 9 samples.

Results

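Immediate early genes are genes whose transcription starts within minutes of a stimulus and needs no new protein. The 10 genes described here, Fos, Fosb, Junb, Egr1, Arc, Npas4, Nr4a1, Ier2, Dusp1 and Btg2, were chosen by symbol out of the 34745 genes of the count tables. All 10 were in the tables, with 13 to 1100 counts per library, and all 10 passed the filter on low counts that left 17901 genes for testing. Spinal cords of wild-type C57BL/6 mice aged 7 to 9 weeks were profiled by RNA-seq on day 7. The 3 groups, with 3 libraries each, were uninjured animals (called sham in the design text, Control in the titles and not injured in the treatment label), animals with spinal cord injury (SCI), and animals given hyperbaric oxygen (HBO) after injury, oxygen breathed at raised pressure. The sources used here do not give the lesion level, the oxygen pressure, the number of sessions or the interval between the last session and sampling. No label ties a library to its own animal. P-values therefore measure only the spread between these samples.

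In resting cells these genes are kept poised by serum response factor (SRF) with its ternary complex partners, and by CREB bound at cyclic AMP response elements (CREs). Growth factors, calcium entry or stress activate MAP kinases and CREB kinases, the genes are transcribed in a short burst, and their unstable mRNAs decay soon after. Several encode transcription factors (the AP-1 subunits Fos, Fosb and Junb, the zinc finger protein Egr1, the nuclear receptor Nr4a1 and the neuronal factor Npas4). Others act outside transcription, such as the MAP kinase phosphatase Dusp1 and the synaptic protein Arc. In spinal cord, neuronal activity is a classic trigger of Fos and Arc, and tissue injury induces Fos, Junb and Egr1 in glia, vessels and infiltrating cells as well.

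In sham and in SCI, though not in HBO, 8 of these genes (all but Arc and Npas4) had the same highest library. The promoters are shown beside that pattern, and a link between them was not tested. The RefSeq promoter table for GRCm38.p6 held 7 of the 10 genes (Fos, Fosb, Junb, Npas4, Nr4a1, Dusp1 and Btg2) and not Egr1, Arc and Ier2, so 6 of those 8 genes have a window. The CRE core TGACG, searched on both strands in the 250 bases before the transcription start, was present in 7 of the 7 windows and in 17.8% of all 32851 promoter windows. The full CRE, TGACGTCA, which contains the core on each strand, was present in Dusp1 and Btg2 and in 1.55% of all windows. A set of 3 windows is shown, for the AP-1 subunits Fos and Junb and for the antiproliferative gene Btg2, to set a TATA-containing promoter with 2 cores beside a promoter with 1 core and one with a full element. Each is written in transcription direction, 5′ to 3′, with the matched motifs in capitals.

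Fos, chr12:85473640-85473889, plus strand: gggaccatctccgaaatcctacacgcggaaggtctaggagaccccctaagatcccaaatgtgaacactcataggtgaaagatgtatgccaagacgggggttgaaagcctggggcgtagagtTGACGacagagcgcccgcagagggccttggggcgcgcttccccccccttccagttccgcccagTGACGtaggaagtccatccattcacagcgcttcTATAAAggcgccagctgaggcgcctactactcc
Junb, chr8:84978749-84978998, minus strand: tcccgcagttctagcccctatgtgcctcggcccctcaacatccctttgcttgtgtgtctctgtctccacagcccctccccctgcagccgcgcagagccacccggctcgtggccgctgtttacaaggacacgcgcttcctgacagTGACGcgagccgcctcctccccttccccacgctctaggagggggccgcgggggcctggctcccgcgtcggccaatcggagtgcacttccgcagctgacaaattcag
Btg2, chr1:134079156-134079405, minus strand: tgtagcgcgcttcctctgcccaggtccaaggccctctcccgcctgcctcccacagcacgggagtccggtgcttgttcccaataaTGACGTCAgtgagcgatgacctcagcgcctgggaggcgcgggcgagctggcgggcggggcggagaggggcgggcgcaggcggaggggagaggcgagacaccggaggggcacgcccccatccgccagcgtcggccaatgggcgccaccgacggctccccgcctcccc

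In Fos the cores lay at -129 and -66, counted to the first base of the match from the start site, and the TATAAA element at -33. TATAAA was found in Fos alone among the 7 genes and in 12.4% of all windows. The Junb core began at -106 and the Btg2 full element at -166. Nr4a1 held 4 cores, the most of the 7, and Npas4, which did not share those highest libraries, held 2. The EGR site GCGGGGGCG was found in Fosb and Nr4a1 and in 2.57% of all windows. Neither the CArG box bound by SRF (1.47% of all windows) nor the AP-1 site TGANTCA (6.75%) matched in any of the 7 windows, which says only that these letters are not in these 250 bases. The GC content of the 7 windows was 58.4% to 74.4%, and the shares over all windows were not matched for it. A match is a string of letters and no measurement of binding.

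**Figure D1:**
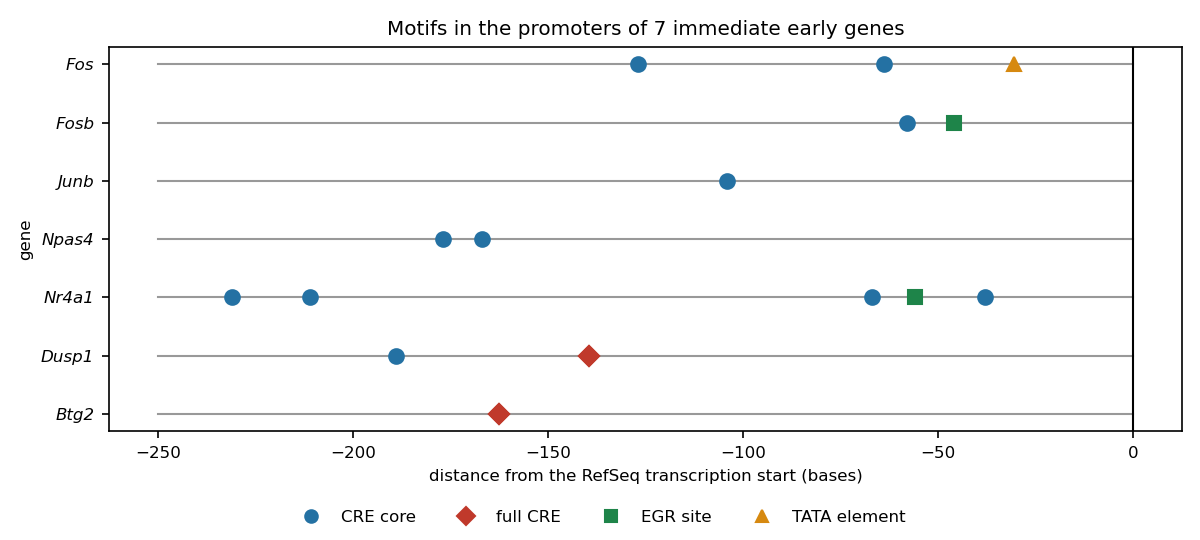
Positions of motif matches (x axis, bases from the RefSeq transcription start, which is at 0) in the 250-base promoter windows of the 7 genes in the promoter table (y axis). Circles are the CRE core TGACG outside a full element, diamonds the full CRE TGACGTCA, squares the EGR site and the triangle TATAAA. Each of the 7 windows holds a core or a full CRE, at differing distances.

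The libraries held 11159587 to 15715484 counts. Markers of cord neurons, astrocytes and oligodendrocytes were detected in every library. The summed level of 5 neuronal markers (Snap25, Syt1, Rbfox3, Nefl, Stmn2) was 3870 to 4590 CPM (read counts scaled to library size) in sham, 1250 to 2140 in SCI and 1430 to 2850 in HBO. Fibroblast markers summed to 88 to 334, 3010 to 7300 and 3770 to 7940 CPM, and monocyte markers to 78.7 to 195, 1650 to 2130 and 1000 to 2360 CPM. The monocyte sum was mostly Lyz2, with means of 140 CPM in sham and 1960 in SCI. Ccr2 had means of 3.11 and 10.1 CPM in sham and SCI. Ly6c2 had 1.21 and 1.53 CPM and was not called (adjusted p = 0.838, edgeR). In such bulk samples, fewer cells of a type and less RNA per cell cannot be told apart. Within their groups, 3 libraries were taken as standing apart, a choice made after seeing the data. Sham replicate 3 carried Schwann cell markers at 276 CPM, where sham replicates 1 and 2 had 3.99 and 3.87. SCI replicate 1 carried skeletal muscle markers at 366 CPM against 58.9 and 10.1, and erythroid markers at 1050 CPM against 338 and 269. HBO replicate 3 carried neutrophil markers at 254 CPM against 102 and 107. Other libraries differed too. HBO replicate 1 carried skeletal muscle markers at 70.9 CPM against 15.8 and 7.94, and SCI replicate 2 Schwann cell markers at 1040 CPM against 437 and 376. The comparisons of the 10 genes are given with and without the 3 libraries taken as standing apart. Leaving those out does not make the remaining libraries alike in their markers.

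Injury against sham came first, asking which of the genes differed in the injured cord after 7 days. Junb, Egr1 and Ier2 rose about 1.5-fold to 2-fold, Fos, Btg2, Arc and Npas4 differed at the level of unadjusted p-values only, and Fosb, Nr4a1 and Dusp1 did not pass either threshold. Thus 3 of 10 genes were called higher and 0 lower at an adjusted p under 0.05 in edgeR, against 20% of all genes tested higher and 16.6% lower. With 7 of 10 genes at an unadjusted p under 0.05, the share among all genes was 46.4%. The median log2 fold change of the 10 genes was 0.54, where that of all genes tested was 0. Without sham replicate 1, 1 of the 10 was called higher, Egr1, with Junb at 0.94 (adjusted p = 0.0534) and Ier2 at 1.04 (adjusted p = 0.0719, edgeR). Without sham replicate 2 or SCI replicate 3, 5 were called higher, Fos and Btg2 being added. Groups did not overlap for 3 genes higher in SCI and 2 lower, against 27.6% and 26.3% of all genes.

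Junb, a JUN-family partner of the FOS proteins, was the 1 gene called among the 3 AP-1 subunits of the list. It was 13.6, 19.5 and 14.1 CPM in the sham libraries, 44.2, 30.9 and 21.3 in SCI, with 25.4, 30.2 and 19.7 in HBO. Every injured library, HBO included, lay above every sham library, with HBO replicate 3 just over the highest sham value. Junb was 32.2 ± 11.5 CPM in SCI (mean ± SD, n = 3) against 15.8 ± 3.27 in sham, a log2 fold change of 1.03 ± 0.27 (SE; adjusted p = 0.0127, edgeR quasi-likelihood test). Junb shares 7.52% of its exon bases in GENCODE M21 with Prdx2 on the opposite strand, and the sources used here give no strand setting for the counting. Those exons cover 2301 bases and the deposited gene spans 1840, so the shared part of the counted gene is not known.

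Fos, the founding AP-1 subunit, was 23, 34.5 and 19.2 CPM in sham, 52.1, 37.9 and 27.7 in SCI, with 31.6, 27.2 and 28.5 in HBO. Its sham and SCI values overlapped, since sham replicate 2 exceeded SCI replicate 3. The log2 fold change of 0.62 ± 0.25 had an adjusted p of 0.0745 in edgeR (unadjusted p = 0.0308 in the same fit). Fosb, a Fos paralog that also gives rise to the stable splice form ΔFosB, stood at 5.27, 5.9 and 1.11 CPM in sham, 11.9, 2.7 and 2.3 in SCI, with 3.11, 2.55 and 1.41 in HBO. A single library, SCI replicate 1, held its high value, and 2 of the 3 SCI libraries lay below 2 of the 3 sham libraries. The log2 fold change of Fosb was 0.48, with an interval (95%) of -1.03 to 1.99, and it was -0.69 without SCI replicate 1.

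Egr1, a zinc finger transcription factor, had the tightest values of the 10 in sham. It was 36.6, 38.9 and 35.6 CPM in sham, 71.8, 56.2 and 44.9 in SCI, with 44.1, 41.8 and 44.7 in HBO. All SCI values lay above all sham and all HBO values, and all HBO values above all sham values, although SCI replicate 3 and HBO replicate 3 differed little. Egr1 rose from 37 ± 1.68 CPM in sham to 57.6 ± 13.5 in SCI (n = 3 each), a log2 fold change of 0.64 ± 0.16 (adjusted p = 0.00976, edgeR). Nr4a1, an orphan nuclear receptor, was 10.9, 15 and 8.14 CPM in sham, 17.7, 13.1 and 9.58 in SCI, with 13.7, 9.91 and 14.2 in HBO. The 3 groups of Nr4a1 overlapped, and its log2 fold change after injury was 0.25 (interval -0.35 to 0.86, adjusted p = 0.505, edgeR).

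Ier2, a small nuclear protein of the immediate early response, was 5.98, 7.3 and 3.63 CPM in sham, 15.5, 10.7 and 7.34 in SCI, with 8.42, 9.68 and 6.78 in HBO. The lowest SCI value only just exceeded the highest sham value. The change of Ier2 was 0.99 ± 0.31 on the log2 scale (adjusted p = 0.0307, edgeR). Btg2, a p53 target that restrains proliferation and promotes mRNA deadenylation, was 13.2, 16.5 and 9.7 CPM in sham, 25.9, 18.2 and 15.7 in SCI, with 17.4, 17.7 and 18.8 in HBO. SCI replicate 3 fell below sham replicate 2, while the HBO libraries, within a narrow band, all lay above sham. Btg2 had a log2 fold change of 0.60 ± 0.22 in SCI, with an adjusted p of 0.0566 in edgeR. Dusp1, the phosphatase that switches off MAP kinases, was 23.4, 28.2 and 17.8 CPM in sham, 30.3, 21.1 and 19.4 in SCI, with 26.5, 17.3 and 25.2 in HBO. The 3 groups of Dusp1 covered the same range, and the interval of its log2 fold change after injury was -0.48 to 0.54.

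Arc and Npas4, the 2 genes most tied to neuronal activity, lay lower after injury. Arc was 28.8, 26 and 22.2 CPM in sham, 15.9, 19.6 and 20.5 in SCI, with 22.1, 15.7 and 14.1 in HBO. Every sham value lay above every value of the other groups, by a small step between sham replicate 3 and HBO replicate 1. The log2 fold change of Arc in SCI was -0.46 ± 0.19 (adjusted p = 0.0809, edgeR), short of the threshold. Npas4 was 4.47, 3.26 and 3.41 CPM in sham, 1.63, 2.43 and 0.936 in SCI, with 1.06, 2.17 and 3.06 in HBO. Sham again lay above the other groups without overlap, at low levels. The log2 fold change of Npas4 in SCI was -1.15 ± 0.41, the largest in size of the 10, with an adjusted p of 0.0511 in edgeR. The 5 neuronal markers fell by a median of 1.19 on the log2 scale in the same comparison, 5 of 5 called lower. The part of neuronal RNA in the Arc and Npas4 values was not tested.

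**Figure D2:**
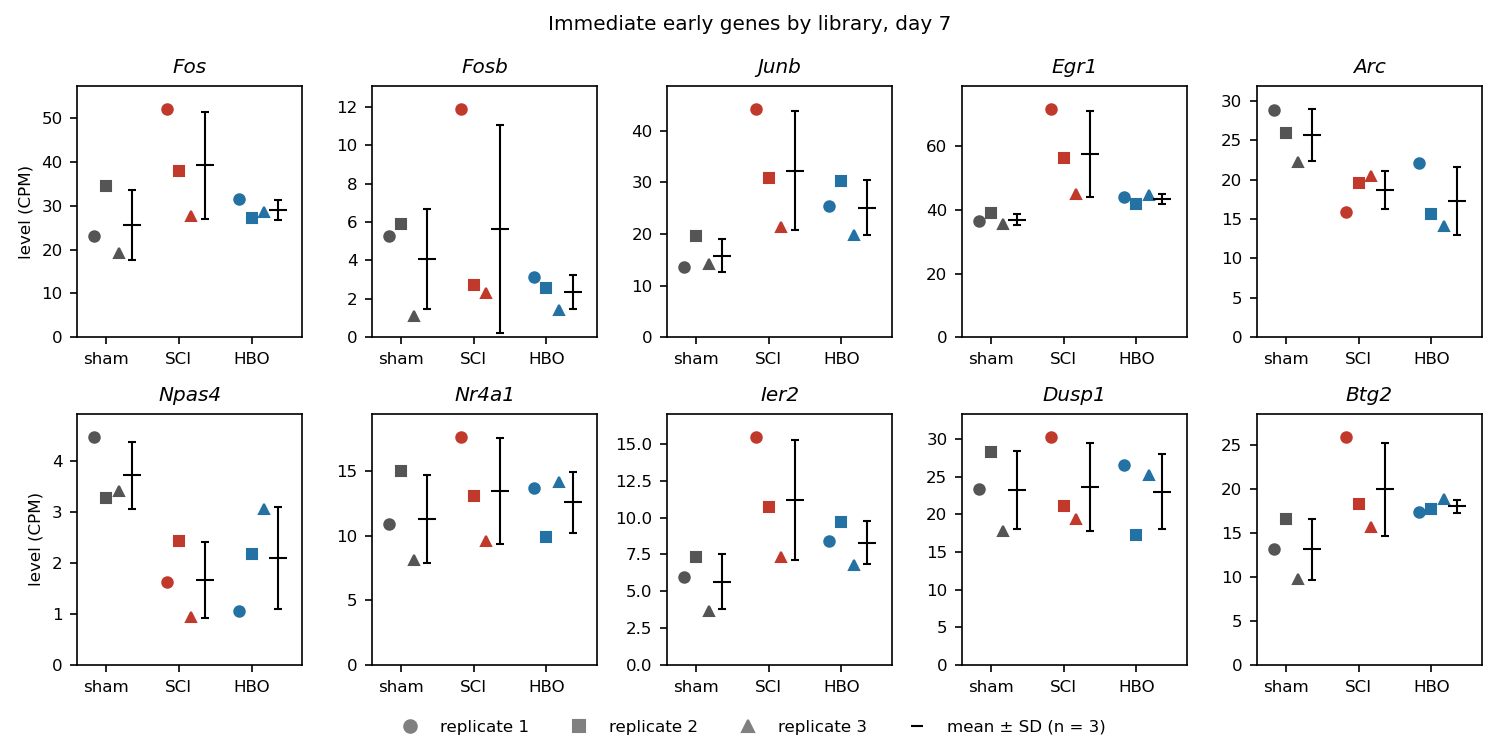
Level of each of the 10 genes (y axis, CPM, separate scale in each panel) in the 9 libraries by group (x axis), with circles, squares and triangles for replicates 1, 2 and 3 and the black bar for the mean ± SD of 3 libraries. In 8 panels the square is the highest sham point and the circle the highest SCI point, and in the Arc and Npas4 panels the sham points lie above all others.

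Without SCI replicate 1, the library with the highest level of 8 of the 10 genes and with the muscle and erythroid markers, Junb stood at 0.73 (adjusted p = 0.0477) and Egr1 at 0.45 (adjusted p = 0.0313) on the log2 scale in edgeR, and Ier2 at 0.69 (adjusted p = 0.127). Without sham replicate 3, the values were 0.96, 0.61 and 0.75, with adjusted p-values in edgeR of 0.0438, 0.0334 and 0.097. The median over the 10 genes was 0.19 without SCI replicate 1 and 0.24 without sham replicate 3, and it was 0.74 without sham replicate 2 and 0.77 without SCI replicate 3. With sham replicate 3, SCI replicate 1 and HBO replicate 3 all left out, 0 of the 10 genes were called higher, Junb at 0.66 (adjusted p = 0.0997) and Egr1 at 0.42 (adjusted p = 0.0926, edgeR), and Fosb was called lower (-1.15, adjusted p = 0.0317). The median was then 0.

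Hyperbaric oxygen was next set against injury alone, the comparison the study was made for. None of the 10 genes was called in either direction, and nor was any other gene, 0% of all genes tested in edgeR. At an unadjusted p under 0.05 it was 1 of the 10 genes, Egr1, against 4.18% of all genes. DESeq2, which called 26 genes (0.176%), also called 0 of the 10, though it gave Npas4 no adjusted p. The log2 fold changes of 9 genes were negative and that of Npas4 positive, with a median of -0.25, and 9047 of the 17901 genes tested were negative with a median of 0.

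Egr1 was 43.5 ± 1.54 CPM in HBO (n = 3) against 57.6 ± 13.5 in SCI, a log2 fold change of -0.40 ± 0.15 with an adjusted p of 0.959 in edgeR (unadjusted p = 0.0248). It was the 1 gene of the 10 whose HBO and SCI libraries did not overlap, all HBO values being lower, as held for 4.07% of all genes (3.96% had all HBO values higher), and its value was -0.21 without SCI replicate 1. For the other AP-1 and rapid response genes the intervals took in 0. They ran from -0.98 to 0.12 for Fos, from -2.82 to 0.32 for Fosb, from -0.93 to 0.22 for Junb and from -1.11 to 0.25 for Ier2. For Nr4a1 the interval was -0.70 to 0.51, for Dusp1 -0.55 to 0.48 and for Btg2 -0.64 to 0.34. For the neuronal genes it was -0.53 to 0.31 for Arc and -0.63 to 1.26 for Npas4. With 3 libraries a group, differences within these bounds were not excluded, so the lack of calls does not show that the HBO and SCI groups were alike. The median of -0.25 became -0.07 without SCI replicate 1, -0.43 without SCI replicate 3 and 0.03 without the 3 libraries named above.

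Hyperbaric oxygen against sham shares its sham libraries with the injury comparison and its HBO libraries with the one just given, so its values are not independent of either. Arc was called lower, and no gene of the 10 was called higher, against 13.5% of all genes lower and 17.4% higher. Junb and Arc, 2 of 10 genes, had an unadjusted p under 0.05, as did 42.4% of all genes. Arc fell from 25.7 ± 3.31 CPM in sham to 17.3 ± 4.27 in HBO (n = 3 each), a log2 fold change of -0.57 ± 0.19 (adjusted p = 0.0439, edgeR). The call was lost in 6 of 9 fits that left out a library, each of sham replicates 1 and 2, SCI replicates 2 and 3 and HBO replicates 2 and 3, with values of -0.44 to -0.57. The neuronal markers stood at a median of -0.98, 4 of 5 called lower. Junb was 25.1 ± 5.26 against 15.8 ± 3.27 CPM, a log2 fold change of 0.67 ± 0.27 with an adjusted p of 0.0792 in edgeR. Egr1 (0.23 ± 0.16), Btg2 (0.45 ± 0.22) and Junb had all HBO values above all sham values, as 24.2% of all genes did. Arc and Npas4 (-0.83 ± 0.41, adjusted p = 0.149, edgeR) had all HBO values below sham, as 23% of all genes did. Fos at 0.19, Fosb at -0.77, Nr4a1 at 0.16, Ier2 at 0.56 and Dusp1 at -0.01 overlapped sham. The median over the 10 genes was 0.17, and it was -0.01 without sham replicate 3 and 0.34 without sham replicate 2. Without the 3 libraries that stood apart it was -0.04, Arc was not called (-0.53, adjusted p = 0.093, edgeR), and Fosb was called lower (-0.97, adjusted p = 0.046, edgeR).

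**Figure D3:**
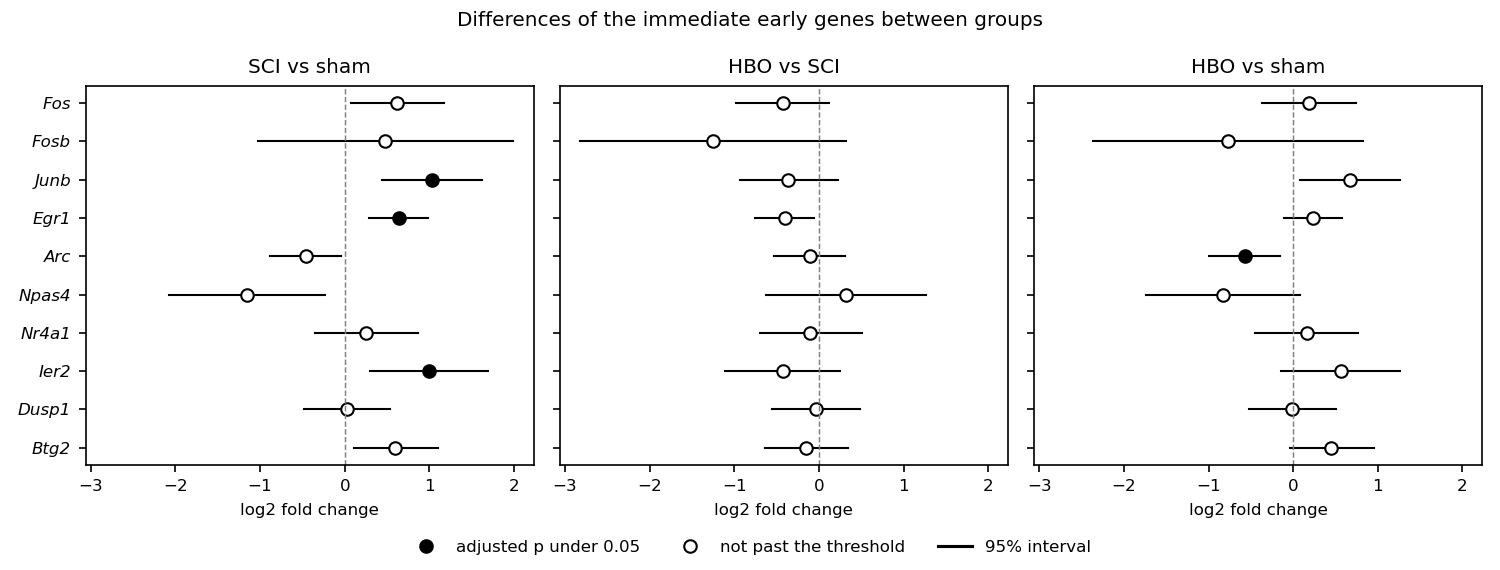
Log2 fold change of each of the 10 genes (x axis) in the 3 comparisons, with lines for the 95% intervals of the edgeR fit and filled points for an adjusted p under 0.05 over all genes tested. Junb, Egr1 and Ier2 are filled in SCI vs sham, none in HBO vs SCI, and Arc in HBO vs sham.

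The libraries of a group were ordered alike across most of these genes. Sham replicate 2 was the highest sham library and SCI replicate 1 the highest SCI library in the same 8 of 10 genes, Fos, Fosb, Junb, Egr1, Nr4a1, Ier2, Dusp1 and Btg2. Over all genes tested, these libraries were the highest of their group in 32.8% and 36.5%. The SCI order was not particular to these genes. SCI replicate 1 was also the highest SCI library in all other rapidly induced genes given below but Rgs2. The same held for all AP-1 relatives given below but Jdp2 and Jund. Sham replicate 2 was not the highest sham library in most of those genes. Sham replicate 3 was the lowest sham library in 8 genes, Arc among them and Junb not (31.3% of all genes). SCI replicate 3 was the lowest SCI library in 9 (33.9%). The mean deviation of the 10 genes from their group mean was 0.31 and -0.41 on the log2 CPM scale in sham replicates 2 and 3, and 0.44 and -0.42 in SCI replicates 1 and 3. Within HBO there was no such order. Replicates 1, 2 and 3 were the highest in 4, 2 and 4 genes, with mean deviations of 0.06, -0.01 and -0.04. The genes share libraries and depth, and their order in a library is therefore not independent evidence for each.

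**Figure D4:**
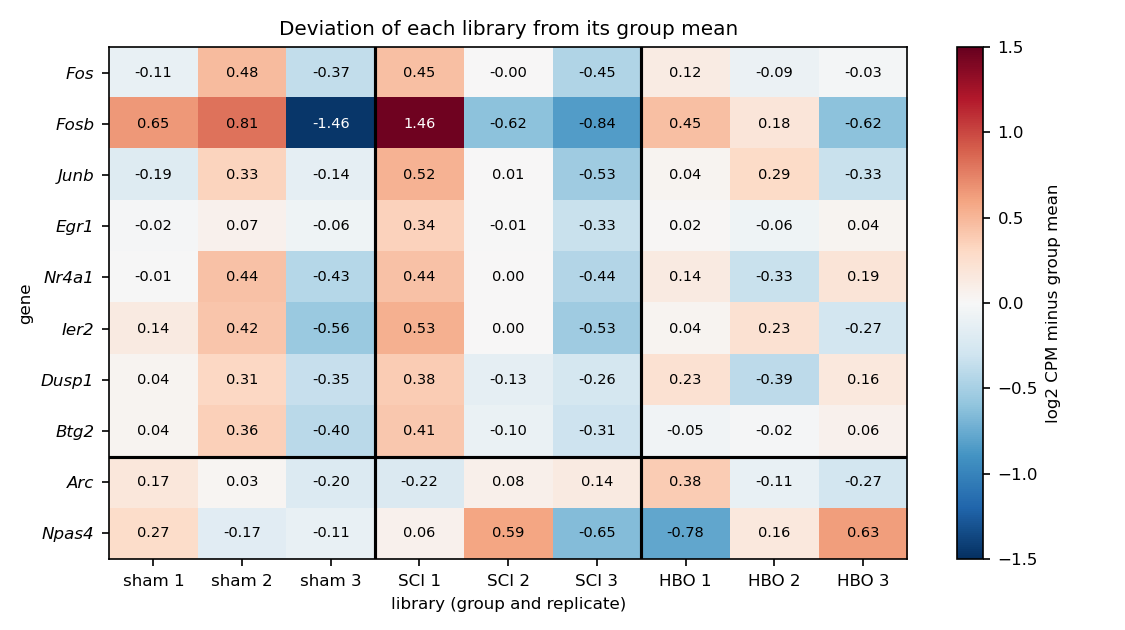
Deviation of each library's log2 CPM from the mean of its own group (colour and printed number) for the 10 genes (rows) in the 9 libraries (columns, vertical lines between groups). Sham replicate 2 and SCI replicate 1 are above their group means in the 8 genes over the horizontal line. Sham replicate 3 and SCI replicate 3 are below them there. Under the line, Arc departs from this in SCI and Npas4 in sham.

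The spread itself differed between genes. The pooled SD within groups was 1.08 on the log2 CPM scale for Fosb, larger than in 98.9% of all genes tested, 0.57 for Npas4 and 0.45 for Ier2. It was 0.37 for Fos and 0.39 for Junb and for Nr4a1, and 0.20 for Egr1, where the median gene had 0.24. The SD was smaller in HBO than in SCI for 8 of 10 genes (80%), as it was for 41% of all genes, and smaller than in sham for 6 of 10 (60%, all genes 38.5%). Egr1 had SDs of 0.06, 0.34 and 0.05 in sham, SCI and HBO, Btg2 0.38, 0.37 and 0.06, and Fos 0.43, 0.45 and 0.11. These SDs rest on 3 libraries each and were not tested.

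Levels between genes were compared per length. In CPM per kilobase of merged exon, SCI had Fos highest at 16.7, then Junb at 14 and Egr1 at 12.8, with Dusp1 at 7.13, Ier2 at 7.33, Btg2 at 7.26 and Arc at 6.11 close together. Nr4a1 at 3.84, Fosb at 0.901 and Npas4 at 0.402 were lowest. In sham the order was Fos at 10.9, Arc at 8.4, Egr1 at 8.26, Dusp1 at 6.99 and Junb at 6.86, with Fosb at 0.655 and Npas4 at 0.897 again lowest. On the authors' FPKM scale Junb led in SCI (17.4 ± 5.88), ahead of Fos (10.3 ± 3) and Egr1 (7.62 ± 1.64, n = 3 each), and the spreads of Junb and Fos overlapped. The 2 scales divide by different lengths. The merged exons, from GENCODE M21, exceed the deposited span for Junb (2301 against 1840 bases) and for Dusp1 (3311 against 2930). The places of Junb and Dusp1 on the merged-exon scale, and so the order of Fos and Junb in SCI, therefore depend on the annotation. The gene length implied by the authors' count and FPKM was shorter than the merged exons for Junb (1840 against 2301 bases), and it exceeded the span of the gene in 4 of 10 genes (Fos, Egr1, Arc and Dusp1). For Egr1 the implied length of 7520 bases was that of its annotated transcripts added together, against 4484 bases of merged exon in GENCODE M21. In the deposited coordinates on GRCm38, Fos lies at chr12:85473890-85477273, Junb at chr8:84976909-84978748 and Ier2 at chr8:84661331-84662852. Egr1 lies at chr18:34859823-34864984, Arc at chr15:74669083-74672570, Npas4 at chr19:4984355-4989971 and Btg2 at chr1:134075170-134079120. Fosb is at chr7:19302721-19310045, Nr4a1 at chr15:101266846-101274792 and Dusp1 at chr17:26505590-26508519.

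Relatives of the 10 genes were counted in the same fit, against the same background of 20% of all genes called higher in SCI and 16.6% lower. Of 9 other AP-1 genes, 7 were called higher in SCI than in sham and 0 lower, with a median log2 fold change of 0.80. Atf3, a stress-induced factor of injured neurons and other cells, was 4.07, 6.95 and 10.4 CPM in sham and 37.6, 27.4 and 26.7 in SCI, groups far apart. Its log2 fold change was 2.09 ± 0.32 (adjusted p = 0.00126, edgeR). Fosl2, a FOS-family gene, rose from 31.2 ± 6.25 to 83.7 ± 29.1 CPM (n = 3 each). Jun, the main partner of Fos, rose by 0.58 ± 0.15 on the log2 scale (adjusted p = 0.0126, edgeR). Without sham replicate 1, or without the 3 libraries that stood apart, 4 of the 9 were called.

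Of the EGR and NR4A relatives and their NAB corepressors, 6 of 7 were tested (Egr4 was under the filter), and 2 were called higher and 0 lower, with a median of 0.77. Egr2 was 1.44, 2.38 and 5.4 CPM in sham, 19.8, 19.8 and 8.35 in SCI, with 13, 16.8 and 12.1 in HBO. The sham and injured libraries did not overlap, and the log2 fold change in SCI was 2.37 ± 0.45 (adjusted p = 0.00338, edgeR), or 3.07 without sham replicate 3. Egr2 is also the master regulator of myelinating Schwann cells. The 4 Schwann cell markers summed to 3.99, 3.87 and 276 CPM in sham, 437, 1040 and 376 in SCI, with 611, 947 and 546 in HBO, and their part in the Egr2 values was not tested. Nab2, a corepressor that EGR proteins induce, rose by 1.02 ± 0.21 on the log2 scale (adjusted p = 0.00492, edgeR).

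Of 25 other rapidly induced genes, 19 were called higher and 0 lower in SCI, with a median of 1.00, and 10 were called higher without the 3 libraries that stood apart. Ctgf, a matricellular target of SRF and YAP, rose from 10.7 ± 3.94 to 62 ± 23.7 CPM, a log2 fold change of 2.54 ± 0.30 (adjusted p = 0.000542, edgeR). Klf6, a Krüppel-like factor, rose by 1.17 and Zfp36l1, which degrades AU-rich mRNAs, by 1.42. The fibroblast sum and the monocyte sum (mostly Lyz2) given above were higher in the same libraries, and their part was not tested.

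Of the late genes that activity induces in neurons, 3 of 8 were called lower and 1 higher (median -0.55). Nrn1, a neuritogenic surface protein, was 48.6, 49 and 52.3 CPM in sham and 10.6, 24.3 and 18.9 in SCI. The groups lay far apart, at a log2 fold change of -1.48 ± 0.25 (adjusted p = 0.00208, edgeR). Pcsk1, a prohormone convertase, stood at -1.18 ± 0.31 (adjusted p = 0.0134, edgeR). These falls stand beside the lower neuronal markers, whose part was not tested. The third gene called lower was Scg2, a granin, and the 1 called higher was Inhba, an activin subunit. The call of Scg2 was lost without any 1 of the sham libraries, SCI replicates 1 and 3 and HBO replicate 3. The call of Inhba was lost without any 1 of sham replicates 1 and 2, SCI replicates 1 and 2 and HBO replicates 1 and 2.

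Of 18 genes of the SRF and CREB pathway upstream, 6 were called higher and 2 lower (median 0.22). Elk3, a ternary complex factor, rose by 1.60 ± 0.21 (adjusted p = 0.000664, edgeR), and Camk4, a neuronal CREB kinase, fell by 1.1 on the log2 scale. Without sham replicate 1, or without the 3 libraries, 3 were called higher. In both of those fits, and without sham replicate 2, SCI replicate 1 or SCI replicate 3, 1 was called lower. Of 12 MAP kinase phosphatases and feedback inhibitors, 2 were called higher and 1 lower (median -0.14). Dusp6, an ERK phosphatase, rose from 33.3 ± 3.16 to 70.8 ± 17.3 CPM, and Dusp8 fell by 0.75 on the log2 scale. Without any 1 of the sham or SCI libraries, 1 of the 12 was called higher. Heat shock genes, which respond to damaged protein, had 3 of 9 called higher, led by Hspa1b (1.65) and Hspb1 (1.57), and 1 lower, Hsp90aa1 (-0.60). The call of Hsp90aa1 was lost without any 1 of sham replicates 2 and 3 and of the SCI libraries. Of 7 genes that glucocorticoids induce, 3 were called higher and 0 lower, led by Cdkn1a at 1.47, and 1 was called without sham replicate 1 and without sham replicate 2. Among all genes tested, 20% were called higher and 16.6% lower, and the counts of the phosphatases and feedback inhibitors did not exceed those shares.

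In HBO against SCI, 0 genes of these 8 lists were called. Their medians lay between -0.46 for the glucocorticoid-induced genes and 0.11 for the late neuronal genes. Of the 25 other rapidly induced genes, 21 were negative, where 9047 of all 17901 genes tested were. SCI replicate 1 was the highest SCI library in all of those 25 but Rgs2, as in Zfp36 (35.6 CPM against 23.2 and 16.7). The 21 was not recounted without that library. Fosl1, an AP-1 subunit, was 1.83 ± 0.415 CPM in HBO against 0.837 ± 0.358 in SCI (log2 fold change 1.11 ± 0.38, adjusted p = 0.959, edgeR). At these low levels its groups did not overlap, as held for 3.96% of all genes higher in HBO and 4.07% lower. Groups also did not overlap for 1 higher and 3 lower of the 12 phosphatases and feedback inhibitors, and for 2 lower of the 9 heat shock genes. The same held for 1 lower of the 18 upstream genes and for 1 higher and 1 lower of the 8 late neuronal genes. In HBO against sham, 4 of the 9 AP-1 relatives were called higher, Atf3 (1.96), Batf (2.23), Fosl1 (2.60) and Fosl2 (1.23). Egr2 (2.17) and Nab2 (0.65) were called higher too, as were 14 of the 25 other rapidly induced genes, led by Ctgf at 2.24. That 14 was 8 without sham replicate 1 and 9 without HBO replicate 2. In those fits the calls over all genes, in either direction, fell from 5530 to 3053 and 3195. With all 9 libraries, 17.4% of all genes were called higher. The call of Nab2 was lost without any 1 of the sham libraries, without SCI replicate 2 or 3 and without HBO replicate 2. Of the late neuronal genes, Nrn1 (-0.95) and Nptx2 (-0.86) were called lower and Inhba (0.57) higher. None of the 3 was called without HBO replicate 2, Nptx2 was not called without sham replicate 1 or 3, and Inhba was not called without sham replicate 1 or 2, SCI replicate 2 or HBO replicate 1.

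**Figure D5:**
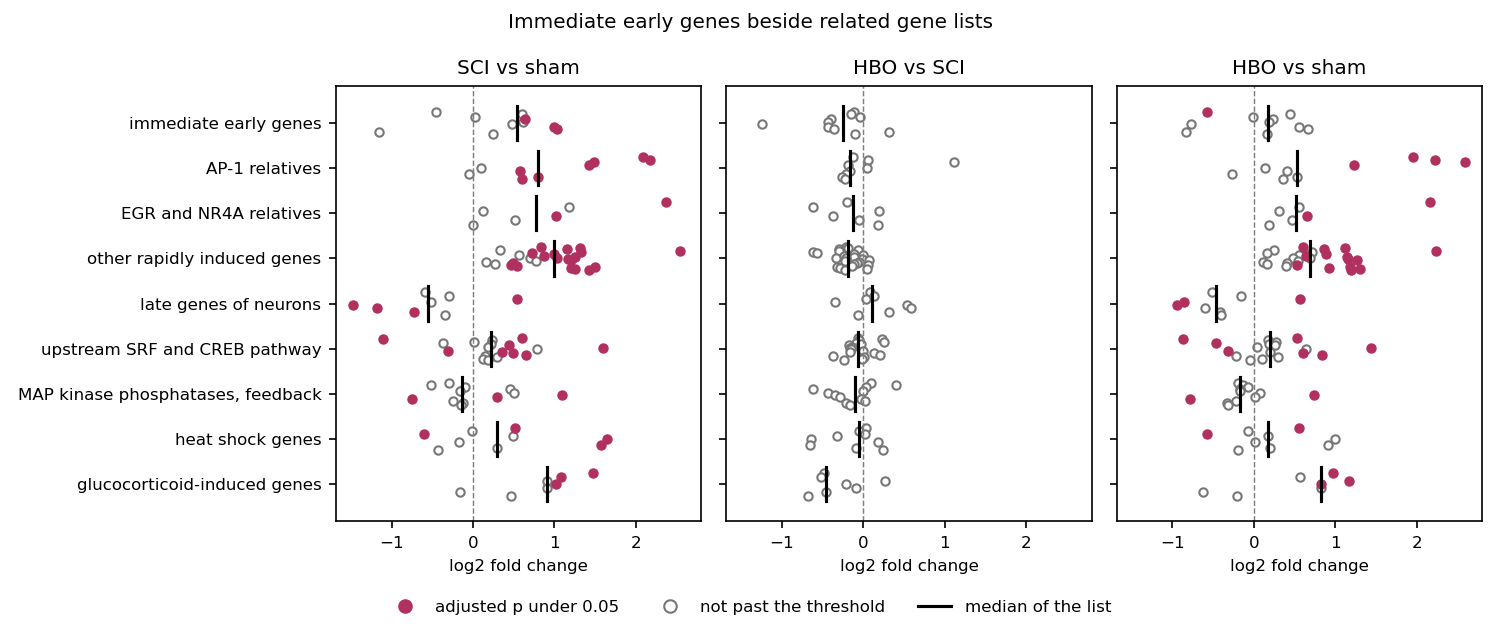
Log2 fold change (x axis) of every tested gene of the 10 immediate early genes and the 8 related lists (rows) in the 3 comparisons, with filled points for an adjusted p under 0.05 over all genes in edgeR and black bars for list medians. AP-1 relatives and other rapidly induced genes lie mostly to the right of 0 in both comparisons with sham, with medians of 0.80 and 1.00 in SCI, and no point is filled in HBO vs SCI.

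The genes whose levels over the 9 libraries were most like the mean standardised profile of the 10 genes were ranked among 12390 genes with a mean of 5 CPM or more. They were Wdr76 (Pearson r = 0.923), Slc46a1 (0.911), Gosr2 (0.904), Tal1 (0.894) and Myl1 (0.887). The profile was highest in SCI replicate 1 at 1.23, a mean of z-scores, and lowest in sham replicate 3 at -1.07. Wdr76, a WD repeat protein, was 5.33 to 7.66 CPM in sham, 6.62 to 11 in SCI and 7.59 to 8.35 in HBO, a narrow range. Myl1, a light chain of skeletal muscle myosin, was 41 CPM in SCI replicate 1 against 4.3 and 1.08 in the other SCI libraries, the library with skeletal muscle markers. Tal1, a factor of erythroid and endothelial cells, was 9.33 CPM in that library against 6.38 and 6.19. The likeness is taken over libraries that share depth and tissue composition and is given as a description. The 10 genes make up the profile, so their own correlations with it are partly of a gene with itself. They ran from 0.74 to 0.95 in 8 genes, with Arc at -0.20 and Npas4 at -0.18.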

How the data were processed

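Spinal cord RNA of 9 libraries in 3 groups was sequenced, with groups taken from the sample titles. Per the submitters' processing notes, HISAT2 was the aligner and GRCm38 (mm10) the build; the sources used here name no counting tool, annotation release or strand setting. The deposited count columns hold the authors' raw read counts per gene, and the deposited FPKM columns hold the authors' FPKM, used for levels between genes only. The 10 genes and all gene and marker lists were chosen with earlier results of these data known.

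The count test used edgeR 4.0.16 (limma 3.58.1, R 4.3.3): filterByExpr, TMM scaling, glmQLFit with 1 mean per group over all 9 libraries, and glmQLFTest for each of the 3 contrasts. P-values were adjusted by Benjamini-Hochberg over the 17901 genes tested, and genes under 0.05 were called. CPM use TMM-scaled library sizes, and log2 CPM a prior count of 2. Intervals (95%) are the log2 fold change plus or minus the t quantile times its SE. Named genes are the 10 genes, up to 4 genes of each list with the smallest p in a comparison, and the 5 genes most like the mean profile; Jun and Egr4 were named after their values were seen. Promoter windows come from RefSeq (GRCm38.p6). Replicates differed by more than counting noise (chi-squared per degree of freedom 11.4 to 36), so none was taken as a repeat deposit. The test was run on simulated counts with known fold changes, drawn independently for each gene. That check does not cover libraries that differ in tissue composition, as these do. Alternatives were RLE scaling, DESeq2 1.42.0, no filter, 6 libraries only, a replicate block and leaving out libraries. The set of 3 libraries left out together was chosen after seeing the data.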

Additional observations from a re-analysis of the deposited data

How the results depend on the processing

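Depth gave 13 to 1100 counts per gene and library. Standard errors in SCI vs sham were largest for Fosb (0.68) and Npas4 (0.41). Each of 10 log2 fold changes was refitted under 15 alternatives per comparison. In SCI vs sham 124 of 150 values kept direction and side of the threshold, 8 lost and 12 gained the call and 6 changed sign. In HBO vs SCI 136 kept it and 14 changed sign, and in HBO vs sham 131 kept it, 9 lost and 4 gained the call and 6 changed sign. Npas4 in HBO vs SCI, to which DESeq2 gave no adjusted p, was counted as not called. The cause was not tested unless an alternative's smaller number of libraries gives it. RLE scaling changed no call of the 10 genes. Egr1 was called in SCI vs sham in 14 of 15 alternatives, Junb in 13 and Ier2 in 10. Junb was not called without sham replicate 1 (0.94, adjusted p = 0.0534, edgeR; range over alternatives 0.00154 to 0.0997). Ier2 was not called without sham replicate 1 (1.04), sham replicate 3 (0.75), SCI replicate 1 (0.69) or SCI replicate 2 (1.02), with adjusted p-values over alternatives of 0.0131 to 0.258.

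Of the 10 genes, DESeq2 called 4 higher in SCI vs sham (Btg2 added, adjusted p = 0.0467) and 1 lower (Npas4, adjusted p = 0.0382), and of all genes it called 6873 in SCI vs sham and 26 in HBO vs SCI. With only the 6 libraries compared, 2 were lower in SCI vs sham (Arc, Npas4), and in HBO vs sham 1 was higher (Junb, adjusted p = 0.0356, edgeR) and 0 lower (Arc at -0.55), with Dusp1 at 0.01. Deviations of libraries with the same replicate number had 9 correlations of -0.18 to 0.14, and those with different numbers had -0.2 to 0.25. These values show no pairing by number but cannot exclude a shared batch. A replicate block left 3 genes higher in SCI vs sham and 0 lower in HBO vs sham, with 5592, 0 and 4459 of all genes called. Without the 3 libraries that stood apart, chosen after seeing the data, 3477 genes were called in SCI vs sham, 0 of the 10 higher and 1 lower, and 2 genes in HBO vs SCI. Signs then changed in SCI vs sham for Fosb (-1.15), Nr4a1 (-0.19) and Dusp1 (-0.34), in HBO vs SCI for Fosb (0.18), Junb (0.09), Npas4 (-0.07), Nr4a1 (0.06), Ier2 (0.01), Dusp1 (0.11), Btg2 (0.05) and Scg2 (-0.05), and in HBO vs sham for Nr4a1 (-0.12).

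Leaving out each library gave 4316 to 6726, 0 to 4 and 3053 to 5777 genes called in the 3 comparisons, taken in the order above. Of the 10 genes, 1 to 5 were higher and 0 to 2 lower in SCI vs sham, 0 in HBO vs SCI, and 0 to 1 higher and 0 to 1 lower in HBO vs sham. Ranges that crossed 0 were -0.69 to 0.85 for Fosb and -0.19 to 0.20 for Dusp1 in SCI vs sham, -0.33 to 0.02 for Arc, -0.06 to 0.68 for Npas4, -0.29 to 0.16 for Nr4a1, -0.16 to 0.19 for Dusp1 and -0.29 to 0.09 for Btg2 in HBO vs SCI, and -0.17 to 0.16 for Dusp1 and -0.04 to 0.40 for Nr4a1 in HBO vs sham.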
